A study of Mus musculus with 6 samples.

Results

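The insulin-like growth factor (IGF) axis was examined through 10 genes in the H3K4me1 landscape of the embryonic mouse whisker pad. They were the ligands Igf1 and Igf2, the receptors Igf1r and Igf2r, and the binding proteins Igfbp2, Igfbp3, Igfbp4, Igfbp5, Igfbp6 and Igfbp7, out of 21755 protein-coding genes annotated on the autosomes and X. A peak was linked to a gene when it overlapped the gene body or the 5 kb on either side by at least 1 bp. It was also linked when it lay at most 100 kb from the body and its nearest protein-coding start site was that of the gene. By this rule 54, 44 and 43 peaks were linked to the 10 genes in replicates 1, 2 and 3. They merged into 51 regions, of 19251 regions in all.

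The series holds 6 samples of wild type B6/J2 whisker pads at embryonic day 12, with an antibody to H3K4me1 in 3 and IgG as the control in 3. No agent was given and no allele was altered. The 3 H3K4me1 peak lists form a single group of replicates. IgG was not analysed here, and no value below has a measured background. H3K4me1 is the monomethylated form of lysine 4 on histone H3, and its positions were read by CUT&Tag: a transposase is brought to an antibody and the DNA around it is released and sequenced. The pad was dissociated as a whole, so a peak cannot be assigned to mesenchyme, epithelium, vessels or nerve, and the number of embryos behind each sample is not given in the sources used here.

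Before the results, the labels were checked. In 4 samples, including replicates 2 and 3 of H3K4me1, the source name reads adult kidney although the title reads whisker pad. The study's methods name E12 whisker pads as the CUT&Tag material, and the study used adult kidney as the negative control of its 4C-Seq. Values are given for each replicate throughout, so that those of replicate 1 stand apart. A peak over the body or flanks was found in all 3 replicates in 12 of 14 facial mesenchyme markers and in 2 of 12 adult kidney markers (16.7%), Slc12a1 and Cubn, beside 15.5% of all protein-coding genes. By replicate, 14, 14 and 12 of the 14 facial mesenchyme markers had such a peak in replicates 1, 2 and 3. Replicate 1, whose source name is the pad, carried 4 of the 12 kidney markers, replicate 2 carried 4 and replicate 3 carried 2. Umod, Nphs1, Slc12a3, Slc34a1, Cdh16 and Lrp2 were among those with no peak in any replicate. Of surface ectoderm markers 3 of 8 had a peak in all 3 replicates, of endothelial markers 2 of 8, of skeletal muscle markers 3 of 6, and of neuron and glia markers 0 of 8. The lists held 16788, 12969 and 13998 peaks, whose signal summed to 822360552, 985881531 and 744342185 pileup units. Signals were not scaled to depth, so they are given below beside percentiles within a list or shares of a list.

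As background, IGF1 and IGF2 are secreted hormones that drive growth of the embryo by binding the receptor tyrosine kinase IGF1R, which signals through IRS adaptors, PI3-kinase and AKT. IGF2R, also the receptor for mannose 6-phosphate, takes IGF2 into the cell for degradation. The IGF-binding proteins hold the hormones outside the cell and set how much reaches the receptors. In the mouse, Igf2 is an imprinted gene expressed mostly from the paternal copy. Igf2r is expressed mostly from the maternal copy, and the antisense RNA Airn silences it on the other. H3K4me1 marks enhancers, whether active or not yet in use, and the flanks of promoters, while the start sites of active CpG-rich promoters mostly carry the trimethylated form instead. A peak therefore gives the position of the mark and not a level of expression.

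The windows in which the 3 replicates placed their highest pileup most nearly at the same base are shown first, since these are the best resolved positions of the mark in the axis. They are 200 bp long, centred on the mean of the 3 positions, and were chosen after the values were seen, 1 for each member that had a region outside untranslated sequence with its highest pileups within 200 bp of each other. The highest pileups of the replicates spread over 55 bp in Igf1r (120.5 kb into the gene, in intron 2) and 111 bp in Igf2r (3.5 kb into the gene, in intron 1). They spread over 32 bp in Igfbp2 (3.0 kb, intron 1), 73 bp at Igfbp3 (at -13.1 kb, where negative values lie upstream), 57 bp at Igfbp5 (at -0.1 kb) and 85 bp at Igfbp7 (at -80.7 kb). Sequence was read from the GRCm38 (mm10) genome, and capitals mark matches to the motifs given further on, on either strand, except the E-box.
Igf1r, chr7:68073188-68073387, plus strand: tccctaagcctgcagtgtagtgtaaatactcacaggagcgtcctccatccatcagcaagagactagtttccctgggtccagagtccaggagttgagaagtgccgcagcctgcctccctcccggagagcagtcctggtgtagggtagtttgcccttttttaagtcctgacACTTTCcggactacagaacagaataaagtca
Igf2r, chr17:12766051-12766250, plus strand: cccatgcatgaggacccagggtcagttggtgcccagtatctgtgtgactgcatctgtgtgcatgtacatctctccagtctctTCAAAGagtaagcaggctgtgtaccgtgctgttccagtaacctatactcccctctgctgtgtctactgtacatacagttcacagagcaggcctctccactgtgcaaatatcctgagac
Igfbp2, chr1:72827426-72827625, plus strand: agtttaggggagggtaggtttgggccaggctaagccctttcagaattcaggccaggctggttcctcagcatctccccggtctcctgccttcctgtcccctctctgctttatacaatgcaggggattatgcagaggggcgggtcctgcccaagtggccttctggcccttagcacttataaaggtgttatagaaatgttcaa
Igfbp3, chr11:7226960-7227159, plus strand: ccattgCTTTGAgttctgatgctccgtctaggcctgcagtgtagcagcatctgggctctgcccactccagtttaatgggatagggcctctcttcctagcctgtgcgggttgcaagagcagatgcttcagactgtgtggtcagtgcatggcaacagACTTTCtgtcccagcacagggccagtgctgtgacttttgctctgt
Igfbp5, chr1:72874904-72875103, plus strand: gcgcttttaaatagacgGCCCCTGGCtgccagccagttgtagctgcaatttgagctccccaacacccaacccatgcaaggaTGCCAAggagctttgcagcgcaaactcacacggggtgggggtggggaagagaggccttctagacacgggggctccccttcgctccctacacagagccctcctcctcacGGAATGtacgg
Igfbp7, chr5:77488660-77488859, plus strand: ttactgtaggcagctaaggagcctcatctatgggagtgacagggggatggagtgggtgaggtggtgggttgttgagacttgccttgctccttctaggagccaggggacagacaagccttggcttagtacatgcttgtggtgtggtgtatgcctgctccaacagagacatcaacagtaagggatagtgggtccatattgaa

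The windows were similar in base composition, apart from that of Igfbp5. GC content was 51.0% in the Igf2r window, 52.0% in those of Igf1r and Igfbp7, 53.5% in Igfbp2, 54.5% in Igfbp3 and 60% in Igfbp5.

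A second set of sequences shows the 250 bases before the RefSeq start of 4 members, in the direction of transcription, with each CG in capitals. They are shown because they differ in CpG number and in whether the mark reached the start. Igf1r held 42 CpG, Igfbp3 held 32, Igf2r held 27 and an inner start of Igf2 held 6.
Igf1r, chr7:67952007-67952256, plus strand: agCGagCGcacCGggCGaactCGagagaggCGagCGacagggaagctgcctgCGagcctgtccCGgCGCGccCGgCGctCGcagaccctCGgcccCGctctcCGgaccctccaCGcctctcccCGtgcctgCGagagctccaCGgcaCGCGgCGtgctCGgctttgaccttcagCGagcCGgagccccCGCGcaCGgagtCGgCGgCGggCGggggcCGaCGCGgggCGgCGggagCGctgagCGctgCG
Igf2r, chr17:12769707-12769956, minus strand: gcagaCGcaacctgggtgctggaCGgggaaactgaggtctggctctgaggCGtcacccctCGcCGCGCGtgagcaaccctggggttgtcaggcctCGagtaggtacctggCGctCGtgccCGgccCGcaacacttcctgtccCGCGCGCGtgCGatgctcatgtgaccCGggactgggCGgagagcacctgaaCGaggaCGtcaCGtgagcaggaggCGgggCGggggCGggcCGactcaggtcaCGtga
Igfbp3, chr11:7213924-7214173, minus strand: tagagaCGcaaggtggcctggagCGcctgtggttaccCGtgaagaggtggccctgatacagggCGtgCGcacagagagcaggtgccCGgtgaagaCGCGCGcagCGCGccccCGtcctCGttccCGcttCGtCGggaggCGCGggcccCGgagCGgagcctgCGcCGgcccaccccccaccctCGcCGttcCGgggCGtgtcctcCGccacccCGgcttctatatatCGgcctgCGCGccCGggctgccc
Igf2, chr7:142657497-142657746, minus strand: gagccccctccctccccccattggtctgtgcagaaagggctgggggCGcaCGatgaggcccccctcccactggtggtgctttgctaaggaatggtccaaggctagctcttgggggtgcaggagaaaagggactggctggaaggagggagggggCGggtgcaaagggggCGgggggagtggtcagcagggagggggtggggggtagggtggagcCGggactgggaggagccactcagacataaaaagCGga

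The median over 32841 RefSeq promoters was 6 CpG, and 18.0% held 20 or more. The Igf1r promoter, which drives the signalling receptor, had more CpG than 99.1% of them. The values for the mark at these starts follow below, after the genes have been described.

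Most of the axis carried the mark. A peak over the gene body or its 5 kb flanks was present in 9 of 10 members in replicate 1, 9 in replicate 2 and 8 in replicate 3, against 24.9, 22.6 and 19.6% of all protein-coding genes. In all 3 replicates 8 members had such a peak, against 15.5% of all genes. Igf2 had peaks in replicates 1 and 2 only, and Igfbp6, a binding protein that prefers IGF2, had none in any. With distal peaks included, 9 members had at least 1 region with a peak in all 3 replicates, against 18.4% of all genes.

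Longer genes offer more bases to a peak, so the share of genes with a body peak in all 3 replicates was also taken within classes of length. It was 9.17% of 7626 genes of 5 to 20 kb, a class in which Igfbp3, Igfbp4 and Igfbp5 had such a peak and Igf2 and Igfbp6 did not. It was 13.3% of genes of 20 to 50 kb, with Igfbp2, and 27.2% of genes of 50 to 150 kb, with Igf1, Igf2r and Igfbp7. Among genes over 150 kb it was 51.6%, so a body peak is common among genes of the length of Igf1r, at 281 kb the longest member.

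The regions of the axis recurred between replicates. Of the 51 regions, 37 (72.5%) had a peak in all 3 replicates, against 46.3% of all 19251 regions. Of the other 14, 5 were seen in replicate 1 alone, 1 in replicate 3 alone and 0 in replicate 2 alone, while 4 were shared by replicates 1 and 2, 3 by replicates 1 and 3, and 1 by replicates 2 and 3. Regions in all 3 replicates had a median percentile of total signal of 69.6 and a median length of 5.18 kb, and the other regions a median percentile of 18.6 and a median length of 2.88 kb. A percentile here is the share of peaks in the same list with a total signal at or below that of the peak. The regions seen in a single replicate were thus among the weaker peaks of that list, from the 0.596th to the 22.3rd percentile. Of the 51 regions 11 were also linked to a neighbouring gene, 5 of them with a peak in all 3 replicates.

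By position, 24 of the 37 regions were centred in an intron, 12 between protein-coding genes and 1 in untranslated sequence. Body and flanks held 27 of them and 10 were distal. The introns of Igf1r alone accounted for 14 of the 24. The same split is not given here for all regions, so no preference of the axis for introns can be read from these counts.

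**Figure D1:**
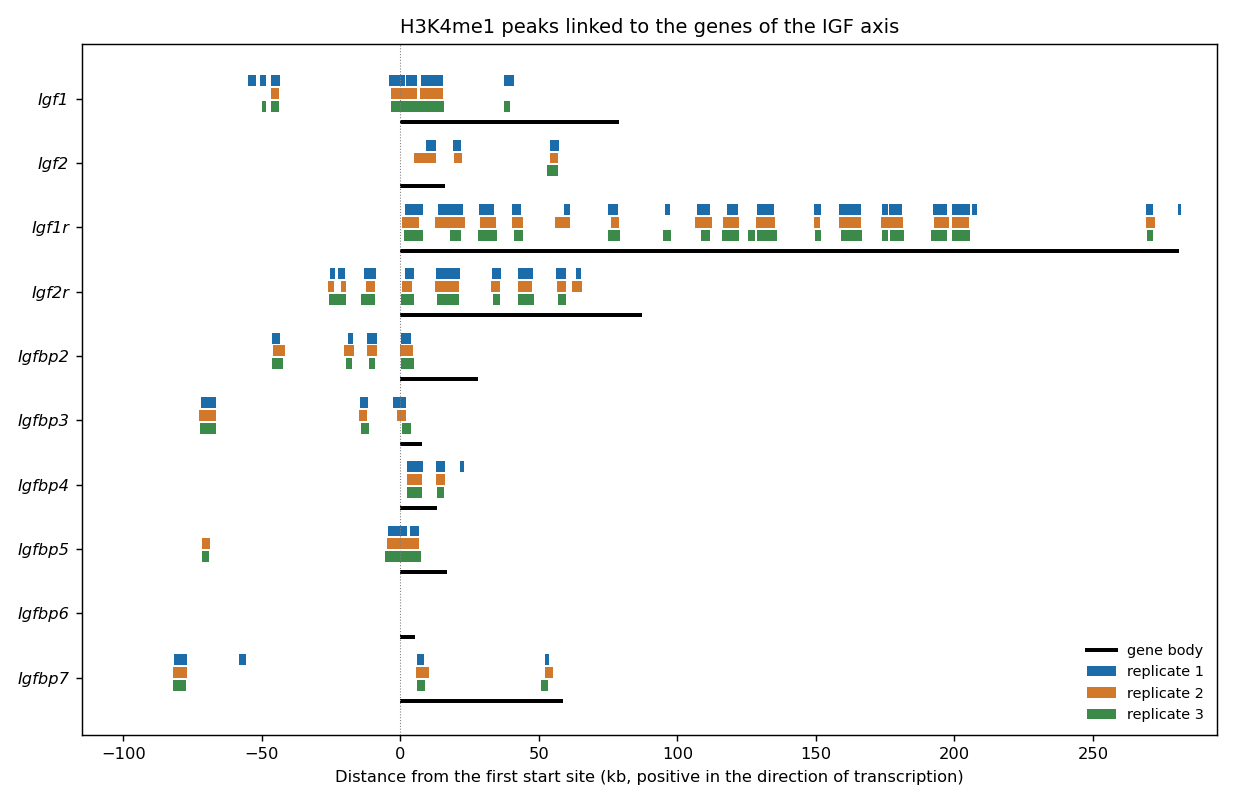
H3K4me1 peaks linked to each member in replicates 1, 2 and 3, drawn as bars at their distance from the first GENCODE start site (x axis, kb, positive in the direction of transcription), with the gene body as a black line. Igf1r shows 14 regions shared by the 3 replicates inside its 281 kb body, Igf2 only a distal bar in replicate 3, and Igfbp6 none.

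Among the ligands, Igf1 carried the region with the highest summed signal of the axis in each replicate. This region ran over 19.7 kb, from upstream of the first start site into the gene (chr10:87854305-87873979), and overlapped the noncoding gene Igf1os. Its total signal was 292319 in replicate 1, 350199 in replicate 2 and 396074 in replicate 3, and its highest pileup 180, 104 and 92. Replicate 1 called it as 3 peaks, replicate 2 as 2 and replicate 3 as a single peak of 19103 bp. The strongest of these peaks, which in replicate 1 had a total signal of 138068, below the 149884 of the strongest peak of Igf2r, stood at the 94.3rd, 95.8th and 99.7th percentile, a mean of 96.6 ± 2.78 (SD, n = 3). The highest pileup lay at -1.5 kb in replicates 1 and 2 and at 3.9 kb in replicate 3, so the replicates shared the block but not its summit.

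Igf1 (chr10:87858265-87937042, plus strand) had a second region in all 3 replicates, upstream and between genes (chr10:87811409-87814625). Its total signal was 52794, 55393 and 45507, at the 76.6th, 60.6th and 64.2nd percentile, and its highest pileups lay at -45.3, -45.6 and -45.3 kb. A weaker peak beside it, at -49.1 and -49.2 kb, and another in intron 3, were called in replicates 1 and 3 but not in replicate 2. Together the peaks over the body and flanks of Igf1 covered 23.5, 19.5 and 24.1% of the bases.

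Igf2 (chr7:142650766-142666816, minus strand), the main growth hormone of the fetus, was the member in which the replicates differed most. A region over the body (chr7:142653819-142661818) had a total signal of 36610 in replicate 1 and 82286 in replicate 2 and no peak in replicate 3. Another just past the 3′ end (chr7:142644746-142647831) had 39242 and 51140 and again no peak in replicate 3. Peaks therefore covered 21.8 and 37.9% of the body with flanks in replicates 1 and 2 and 0% in replicate 3. Both regions were also linked to Gm49394, an annotated protein-coding gene that overlaps Igf2, so the peaks cannot be given to either gene alone. The highest pileups of the body region were nevertheless only 30 bp apart in replicates 1 and 2.

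The region of Igf2 that all 3 replicates shared was distal, 37.0 kb beyond the 3′ end of the gene (chr7:142609603-142613753). Its total signal was 42971, 49116 and 33548, and it stood at the 69.8th, 55th and 47.1st percentile. The annotation puts the noncoding gene Gm33148 there. Within 100 kb of Igf2 there were 2 further regions, both in all 3 replicates, which by the nearest start site belonged to Mrpl23.

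The receptors held 21 of the 37 regions in all 3 replicates. They are also the longest members, Igf1r at 281 kb and Igf2r at 87.3 kb, and this count was not scaled to length. Igf1r (chr7:67952827-68233668, plus strand) had 19 regions, 14 of them in all 3 replicates. Only 21 of all protein-coding genes had more such regions, and among 1476 genes over 150 kb 98.4% had fewer. Of the 14, 4 lay in intron 1, which is 50.9 kb long, 9 in intron 2, which is 161 kb long, and 1 in intron 20, the last. The regions thus lay mainly in the long 5′ introns, which also make up most of the 281 kb of the gene.

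The strongest region of Igf1r by mean percentile lay in intron 2 (chr7:68111179-68119590). Its total signal was 117038, 142835 and 116507, at the 92.7th, 89.5th and 92.3rd percentile, and its highest pileups lay 162.3, 162.4 and 162.0 kb from the start site. A region of intron 1 (chr7:67965318-67976330) was close behind, at the 93.1st, 90.9th and 86.8th percentile. The mean percentile of the 14 regions ranged from 32.3 to 91.5, with a median of 73.8. The 5 regions nearest the 3′ end, 3 of them in all 3 replicates, were also linked to the neighbouring gene Pgpep1l.

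Igf2r (chr17:12682406-12769664, minus strand) had 8 regions, 7 in all 3 replicates, more than 98.8% of the 3524 genes of 50 to 150 kb. Inside the gene they lay in introns 1, 5, 10 and 20 of 47, with 2 in intron 1. The strongest was in intron 1 (chr17:12748181-12757268). Its total signal was 149884, 163751 and 143250, at the 95.1st, 91.6th and 94.9th percentile, a mean of 93.9 ± 1.98 (SD, n = 3). The second by mean percentile was in intron 10 (chr17:12721525-12727370), at the 90.2nd, 86.9th and 89.5th percentile.

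Of the 7 Igf2r regions, 4 overlapped Airn, the antisense RNA that runs from inside Igf2r past its start site. They were both regions of intron 1 and both upstream regions. One upstream region (chr17:12778550-12783733) had a total signal of 70597, 91692 and 123975, and stood higher in replicate 3, at the 93.1st percentile, than in replicates 1 and 2, at the 84.2nd and 79.1st. The other (chr17:12789391-12795958) had a summed signal of 62393, 69989 and 67908. Its strongest peak stood at the 68.2nd, 42.6th and 80.0th percentile, again highest in replicate 3. Replicates 1 and 2 called this region as 2 peaks and replicate 3 as 1, so these percentiles are not of the same stretch. The lists do not separate strands or parental copies, so these regions cannot be given to Igf2r or to Airn.

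The binding proteins differed widely among themselves. Igfbp5 (chr1:72857932-72874884, minus strand), known from bone and connective tissue, had its main region over its own start site (chr1:72867302-72880420). The summed signal was 126981, 185785 and 148706, and the strongest peak stood at the 89.0th, 93.1st and 95.3rd percentile. Replicate 1 called the region as 2 peaks, and its percentile is that of the stronger, with a total signal of 89754. The highest pileup stood at -0.1 kb in all 3 replicates, within the window printed above, so this is a member whose summit and start site coincide. A distal region at -70.7 kb was called in replicates 2 and 3 only, at the 30.1st and 31.2nd percentile.

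Igfbp4 (chr11:99041244-99054392, plus strand), which is cut by the protease PAPPA to release IGF, had its strongest region in intron 1 (chr11:99043470-99049360). The total signal was 147773, 188602 and 124541, at the 95.0th, 93.3rd and 93.1st percentile, a mean of 93.8 ± 1.02 (SD, n = 3). The 3 peaks began at 99043470, 99043492 and 99043498, the first of these 2226 bp into the gene. A second region at the 3′ end (chr11:99054111-99057380) stood at the 61.6th, 59.6th and 44.8th percentile.

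Igfbp3 (chr11:7206086-7213923, minus strand), the main carrier of IGF in blood, had its strongest region far upstream. It lay at -71.4 kb (chr11:7280445-7286486), with a total signal of 92472, 114853 and 115974 and at the 89.5th, 85.3rd and 92.2nd percentile. The regions at -13.2 kb and over the gene itself were weaker, with mean percentiles of 40.9 ± 14.9 and 34.2 ± 14.1 (SD, n = 3). At Igfbp3 the distal region thus stood above the gene's own in each of the 3 replicates.

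Igfbp2 (chr1:72824503-72852474, plus strand) had 4 regions, and all 4 were in all 3 replicates, more than in 99.0% of the 5068 genes of 20 to 50 kb. The region at the 5′ end (chr1:72824423-72829267) had a total signal of 43516, 72492 and 47848, at the 70.3rd, 71.7th and 66.8th percentile. The other 3 lay upstream, and the farthest (chr1:72778206-72782696) stood at the 75.0th, 71.5th and 76.4th percentile. The weakest of them, at -18.8, -17.9 and -18.8 kb, was near the lower limit of the list in replicate 1, at the 0.655th percentile, and at the 19.5th and 18.1st in the others. Igfbp2 and Igfbp5 lie with their 3′ ends facing each other on chromosome 1, and no region was shared between them under the 5 kb flank.

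Igfbp7 (chr5:77349240-77408041, minus strand), a binding protein of low affinity for IGF that is prominent in vessels, had 3 regions in all 3 replicates, of middle strength. Its strongest (chr5:77485201-77490121) was the farthest linked region of the axis, 77.2 kb upstream of the gene. The total signal was 46595, 59791 and 47397, at the 72.5th, 64.1st and 66.3rd percentile. The regions in introns 1 and 2 had mean percentiles of 56.4 ± 15.9 and 46.0 ± 9.21 (SD, n = 3). A further 2 regions, both in all 3 replicates, had the Igfbp7 start site as their nearest but lay beyond the limit of 100 kb, the closer at 122 kb from the body.

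Igfbp6 (chr15:102144362-102149511, plus strand) had no peak over its body or flanks and no linked distal peak. The nearest peak to its RefSeq start was 23157, 22696 and 21219 bp away. Within 100 kb there were 5 regions, 4 of them in all 3 replicates, and the nearest start sites or bodies gave them to Csad, Eif4b, Rarg, Soat2, Tns2 and Zfp740. The lists hold only the top 1% of signal blocks, so a weaker mark at Igfbp6 would not be listed.

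**Figure D2:**
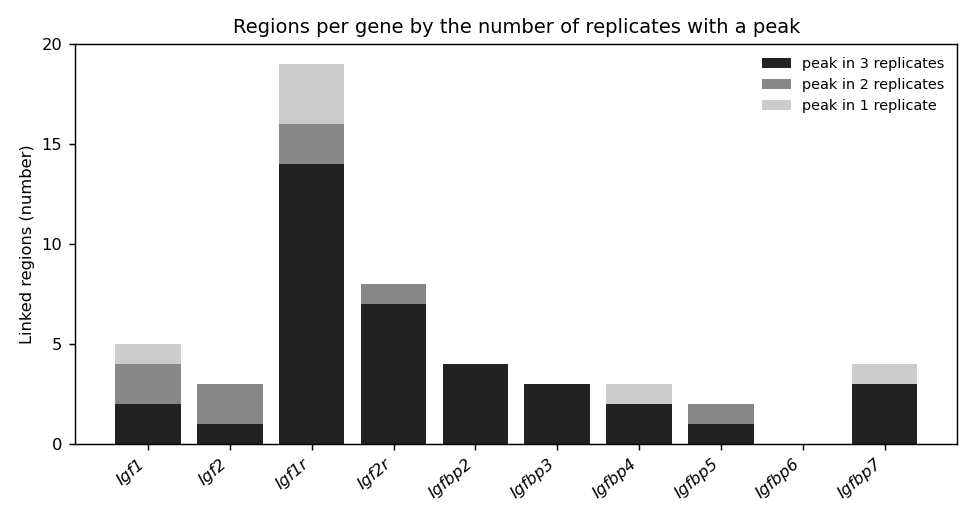
Number of linked regions of each member (y axis), split by whether 3, 2 or 1 replicates had a peak. Igf1r has 19 regions, 14 of them in all 3 replicates, all 4 regions of Igfbp2 and all 3 of Igfbp3 are in all 3, and Igfbp6 has 0.

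By the total signal of the strongest linked peak, the members fell into 2 sets. The mean percentile was 96.6 for Igf1, 93.9 for Igf2r, 93.8 for Igfbp4, 92.5 for Igfbp5, 92.1 for Igf1r and 89.0 for Igfbp3. It was 74.4 for Igfbp2, 69.7 for Igfbp7 and 64.4 for Igf2. Every replicate of the first set, from 85.3 upward, stood above every replicate of the second, of which the highest was 76.4. Within each set, neighbours in this order overlapped in their replicate values. The gap between the sets depended on the measure and the reach. By maximum signal Igfbp4 stood at 83.8 ± 5.96, beside 81.2 ± 3.59 for Igfbp2 and 79.6 ± 4.12 for Igfbp7 (SD, n = 3). By signal divided by length Igfbp5 stood at 65 ± 10.8, below Igfbp2 at 81.8 ± 9.04 (SD, n = 3). With a reach of 50 kb, which leaves out its distal region, Igfbp3 stood at 40.9 ± 14.9 (SD, n = 3). A gene with many linked peaks has more chances of a high maximum, which bears most on the receptors.

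The share of the body with flanks under a peak is scaled to the length of that window and gave another order. Igfbp5 led with 37.4, 43.9 and 46.7% in replicates 1, 2 and 3, and Igfbp4 followed with 38.7, 38.2 and 35.0%. The replicate ranges of Igfbp4 and Igfbp5 overlapped. Next came Igf1r with 28.1, 29.5 and 27.3% and Igf2r with 26.6, 28.9 and 24.9%, which overlapped each other but not Igfbp4. Igf1 stood below both receptors in each replicate, and its range, from 19.5 to 24.1%, did not reach that of Igf2r.

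Igfbp3 had 25.6, 17.9 and 18.1%, a range that overlapped that of Igf1 and lay within that of Igf2. Igfbp2 had 9.64, 12.3 and 12% and Igfbp7 had 5.79, 11.3 and 7.35%, and their ranges overlapped, although Igfbp2 was the higher in each replicate. For comparison, the mean over all protein-coding genes was 4.05, 4.15 and 2.70%, and the median among genes with a peak was 11.3, 13.1 and 9.46%. In each replicate Igf1, Igf1r, Igf2r, Igfbp3, Igfbp4 and Igfbp5 were above that median. The median pools genes of every length, and a single peak fills more of a short window, which bears on Igfbp3, Igfbp4 and Igfbp5. Over all genes of 5 to 20 kb, with or without a peak, mean coverage was 4.02, 4.29 and 2.26%.

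**Figure D3:**
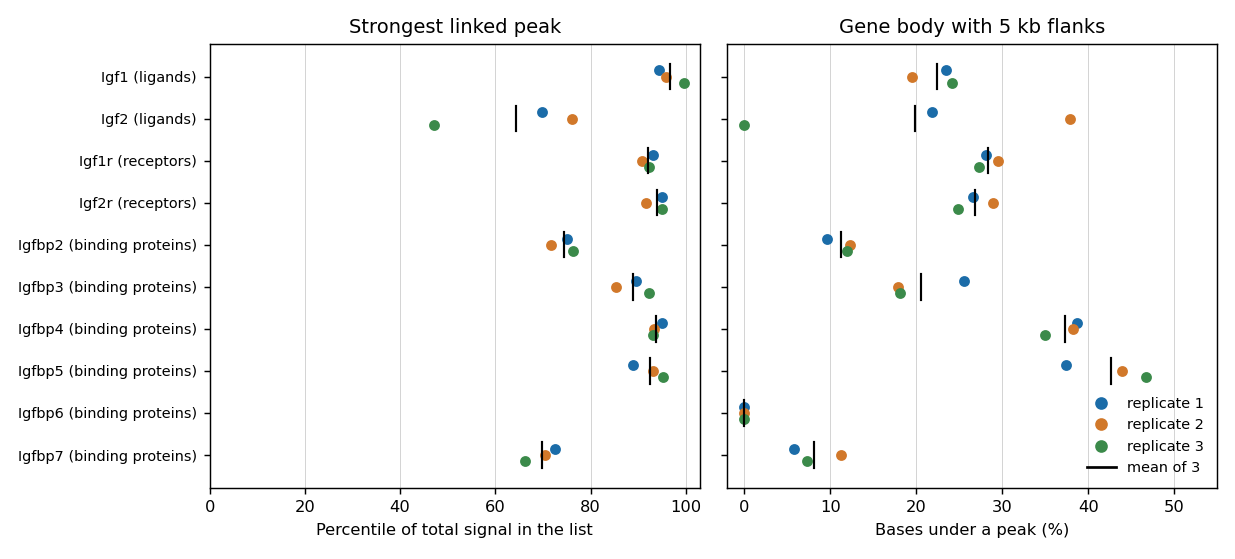
Left, percentile of total signal of the strongest linked peak of each member within its list; right, percent of the bases of gene body with 5 kb flanks under a peak. Points are replicates and the bar is their mean; Igfbp6 has no peak and so no percentile, and Igf2 shows the widest spread in both panels.

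Averaged over members, the receptors had the highest coverage. It was 27.3, 29.2 and 26.1%, a mean of 27.6 ± 1.57% (SD, n = 3). The binding proteins had 19.5, 20.6 and 19.9%, a mean of 20 ± 0.556% (SD, n = 3), and the ligands 22.7, 28.7 and 12.1%, a mean of 21.1 ± 8.41% (SD, n = 3). Binding proteins minus receptors came to -7.80, -8.61 and -6.25 percentage points, the same direction in each replicate, with a mean of -7.55 ± 1.2 (SD, n = 3). This difference of means hides that Igfbp4 and Igfbp5 exceeded both receptors in every replicate, while Igfbp2, Igfbp3, Igfbp6 and Igfbp7 stood below them. Ligands minus receptors came to -4.65, -0.545 and -14.1 points, with a mean of -6.42 ± 6.92 (SD, n = 3), a spread as large as the difference. With a 20 kb flank the mean was -11.2 ± 3.20 and with the stronger 50% of each list -3.15 ± 9.69 (SD, n = 3). Igf2 had a coverage of 0% in replicate 3.

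Distal regions were also counted by class. Of the 16 regions of the binding proteins 9 were distal, of the 8 of the ligands 4, and of the 27 of the receptors 2. Body regions take in the whole gene and its flanks, and the receptors are the longest members. This split was therefore not separated from gene length, and no share over all genes is given beside it. Receptors carried 0.182, 0.180 and 0.204% of the whole signal of the lists, binding proteins 0.0901, 0.106 and 0.103%, and ligands 0.0643, 0.0597 and 0.0696%. Together the 10 genes held 0.353 ± 0.0208% of the signal (SD, n = 3). The members of a class are different genes and not replicates of it, and 3 samples of a single group allow no two-sided exact test below p = 0.25, so no test was made between classes.

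The mark reached the first start site in few members. The first GENCODE start site lay inside a peak in all 3 replicates at Igf1 and Igfbp5, in replicates 1 and 2 at Igfbp3 and in replicate 2 at Igfbp2. At the other 6 members it lay outside in every replicate. Over all genes the share was 5.30, 6.55 and 2.44% in replicates 1, 2 and 3, and 1.82% in all 3. Among genes with a body peak in all 3 replicates it was 11.7%, beside 2 of the 8 such members. When every annotated start counted, Igfbp2 and Igfbp4 also had a start inside a peak in all 3 replicates.

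Starts rich in CpG were mostly outside the peaks. Of the 14 RefSeq promoters of the members, 6 held 20 or more CpG in the 250 bases before the start, of which 0 starts lay in a peak in all 3 replicates and 4 lay outside in every replicate. Of the 8 with fewer, 3 starts lay in a peak in all 3 replicates and 2 lay outside in every replicate. At Igf1r, with 42 CpG in the promoter shown above, the nearest peak began 2140, 1144 and 1955 bp away. At Igf2r, with 27 CpG, it was 1877, 470 and 352 bp away, and at Igfbp4, with 22, it was 2226, 2248 and 2254 bp away. Igfbp7, with 26, was farther, at 6030, 5535 and 6111 bp. At Igfbp3, with 32, the start was inside a peak in replicates 1 and 2 and 708 bp from it in replicate 3. At an inner start of Igf2 with 22 CpG it was inside a peak in replicate 2 and 1257 and 45051 bp away in replicates 1 and 3.

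The same order held among all genes with a body peak in all 3 replicates. This set leaves out Igf2 and Igfbp6, whose promoters are among the 14. In it, the start was in a peak in all 3 for 2.34% of 1156 promoters with 20 or more CpG and for 18.6% of 2323 with fewer. Per replicate the shares were 11.2, 18.1 and 3.98% against 32.2, 36.9 and 22.3%. The inner Igf2 start with 6 CpG, printed above, lay in a peak in replicates 1 and 2 and 43743 bp from the nearest peak in replicate 3. No mark other than H3K4me1 was measured here, and the part of CpG content in these values was not tested.

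Replicates 2 and 3 differed in relation to base composition, in the members as in all regions. Replicate 1 was not compared in this way. The share of a region's signal in the summed signal of the list was compared as the log2 ratio of replicate 3 to replicate 2. Over the 8916 regions in all 3 replicates on these chromosomes, the median ratio was 0.46 below the median GC content of 47.3% and -0.38 above it. Over the 37 member regions it was 0.22 in the 20 below and -0.19 in the 17 above. The extremes were both in Igf1r. The ratio was 0.94 for a region with 45.7% GC (chr7:67980883-67987793) and -0.91 for a region with 49.9% GC (chr7:68059166-68065182).

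The Igf1 block over the start site had the lowest GC content of the 37, 44.2%, and a ratio of 0.58. The 2 Igf2 regions without a peak in replicate 3 held 52.4 and 59.6% GC, and the highest among the 37 was 53.6%, in the distal region of Igf2. The 2 Airn regions upstream of Igf2r, whose strongest peaks ranked highest in replicate 3, held 45.6 and 46.2% and had ratios of 0.84 and 0.36. The part of base composition in the values of replicates 2 and 3 at Igf1, Igf2 and Igf2r was not tested.

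**Figure D4:**
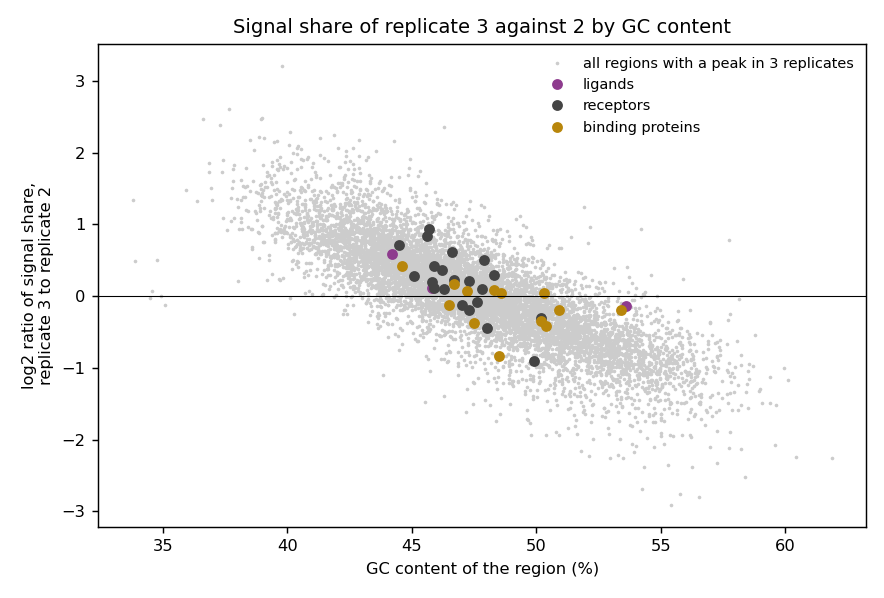
Log2 ratio of signal share, replicate 3 to replicate 2 (y axis), against GC content (x axis, %) of regions with a peak in all 3 replicates. Grey points are all 8916 regions and coloured points the 37 of the members by class; both fall from left to right, with medians of 0.22 and -0.19 for members below and above 47.3% GC.

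Motifs were counted in 200 bp windows in the strongest region in all 3 replicates of each of the 9 members that had one. Each window was centred on the mean of the 3 positions of highest pileup. These positions spread over 5451 bp in Igf1, 1826 bp in Igfbp4, 1613 bp in Igfbp2 and 1015 bp in Igf2r. Where the spread is wide, as in Igf1, the window need not hold the highest pileup of any replicate. The letters searched on both strands were CTTTGA for TCF and LEF factors, GAAAGT for Prdm1, CANNTG for the E-box, TAATTA for homeobox factors, GCCNNNGGC for AP-2, TTGGCA for a partial site of nuclear factor I, GGAATG for TEAD and TGTTTAC for forkhead factors. Matches to different motifs may overlap, and each match is a description only. The E-box was in 6 of 9 windows, against 67.1% of 8916 windows made in the same way. GGAATG was in 2, those of Igf1 and Igfbp5, against 12.5%. GAAAGT was in the Igfbp3 window only, against 10.3%, and GCCNNNGGC and TTGGCA in the Igfbp5 window only, against 7.18 and 11.0%. CTTTGA was in 0, against 12.8%, TAATTA in 0, against 3.65%, and TGTTTAC in 0, against 2.89%. With 9 windows, such counts lie near the background.

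In the windows printed above, which are in part other regions, CTTTGA was found at Igf2r and at Igfbp3, and GAAAGT at Igf1r and at Igfbp3. Of the 8916 windows not selected for close pileups, 12.8% held CTTTGA and 10.3% GAAAGT. The printed windows were chosen after the values were seen, so these matches are a description only. The Igfbp5 window held GCCNNNGGC, TTGGCA and GGAATG, just upstream of the start site. The Igfbp2 and Igfbp7 windows held none of the letters other than, in Igfbp2, the E-box.

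The rest of the IGF and insulin pathway was counted in the same way. Of 28 other genes, 18, 15 and 16 had a body peak in replicates 1, 2 and 3, and 14 (50%) had one in all 3, beside 8 of the 10 members and 15.5% of all genes. The share over all genes was 27.2% at 50 to 150 kb and 51.6% over 150 kb. The 28 genes, of which Pappa2 spans 269 kb, were not split by length, nor were the groups below. Neither of the ligands Ins1 and Ins2 had a peak, nor did the carriers Igfbp1, Igfals and Igfbpl1. Insrr, the orphan receptor related to the insulin receptor, had a body peak in all 3 replicates, and Insr had it in replicate 1 only. Among genes of the proteases that cut binding proteins and their inhibitors, Pappa, Pappa2 and Htra1 had a peak in all 3, Stc2 in replicate 2 and Stc1 in none.

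Downstream of the receptors, 5 of 6 adaptors had a peak in all 3 replicates. They were Irs1, Irs2, Grb10, Grb14 and Shc1, and Irs4 had none. Irs2, which couples the receptors to PI3-kinase, had 13 regions, 9 of them in all 3 replicates, and coverage of 41.7, 38.1 and 30.6%, above Igf1r in each replicate. Of the 8 kinase and phosphatase genes Pik3ca, Pik3r1 and Akt1 had a peak in all 3, and Pik3r3 and Pdpk1 had none. The transcription factors Foxo1 and Foxo3, which AKT keeps out of the nucleus, both had a peak in all 3, with 6 and 4 regions shared by the replicates.

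**Figure D5:**
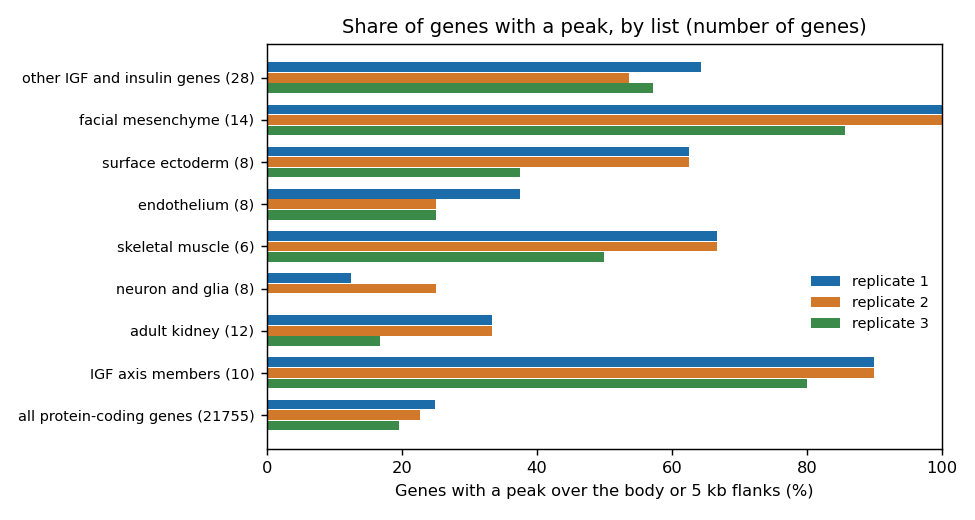
Percent of genes with a peak over the body or 5 kb flanks (x axis) in replicates 1, 2 and 3, for the IGF axis, the other pathway genes, 6 marker lists and all protein-coding genes, with the number of genes in brackets. The axis stands at 9, 9 and 8 of 10 genes and the facial mesenchyme list at 14, 14 and 12 of 14, while adult kidney genes stand at 4, 4 and 2 of 12.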

How the data were processed

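Per the labels and the study's methods, CUT&Tag libraries were made from E12 whisker pads with Abcam Ab8895 or IgG, and the authors called peaks per replicate with SEACR 1.3 in stringent mode without IgG, keeping the top 1% of signal blocks. The submitters' processing notes also name Bowtie2 2.3, SAMtools 0.1.19, bedtools and mm10, without roles; treatment of duplicates is not given in the sources used here. The deposited signal columns are the summed and the highest pileup of each peak, as whole numbers not scaled to depth. Read numbers are not in the lists, so depth was not measured, and percentiles and shares within a list were used.

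Genes were taken from GENCODE M21 (21755 protein-coding genes, 54132 start sites) and sequence from GRCm38, with python 3.11.15, numpy 2.4.6, pyfaidx 0.9.0.4 and matplotlib 3.10.9. RefSeq promoters (GRCm38) were matched by symbol for all 10 members. Linked peaks of the 3 lists were merged at 1 bp of overlap. The linking code was tested on simulated data. Groups and replicate numbers came from sample titles; whether the pads were separate litters is not stated, so the SD is that between these samples. All values are descriptions over 3 replicates of a single group, and no test was made. All 10 members were named, with the strongest region of each in all 3 replicates, and of the other pathway genes those with a peak in all 3 replicates or in none; Insr and Stc2 were named after their values were seen. Some marker genes are counted in their list but not reported by name here. The members and lists were chosen with earlier results of these data known. Alternatives changed the flank, the reach, the start sites, the peaks kept, the joining of peaks, the overlap, the measure of strength and the replicates used.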

Additional observations from a re-analysis of the deposited data

How the results depend on the processing

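Of 78 alternative values for the 6 main results, 69 moved by less than the spread between replicates, or for counts stayed within 1.5 times, and 9 moved by more; none changed sign. Binding proteins minus receptors was -6.28 percentage points without a flank, -9.15 with a 20 kb flank and -6.05 with the strongest 10000 peaks, negative throughout. The signal share of the members was 0.378% with a 20 kb flank, 0.330% with a reach of 50 kb, 0.28% with no distal link, 0.393% with the stronger 50% of each list and 0.375% with the strongest 10000 peaks. The stronger 50% also left 21 regions in all 3 replicates. Each of these settings changes by construction which peaks are counted. Leaving out each replicate gave 8 to 9 members with a peak in both others, 46 to 52 regions, 38 to 43 regions in both others, a signal share of 0.341 to 0.361%, binding proteins minus receptors of -8.20 to -7.02, and ligands minus receptors of -9.35 (without replicate 2) to -2.60 (without replicate 3). Coverage of Igf2, 0% in replicate 3, lies behind the last range. Of 187 values for single members 45 moved. Without the distal link the strongest peak of Igfbp3 stood at 34.2 instead of 89.0, and with a 20 kb flank Igfbp2 took in the region of Igfbp5 (87.8) and Igfbp6 gained 1 region. No paired analysis was possible because numbered partners exist only among IgG libraries, which are not used here. The top 1% limit leaves weaker marks out of every list, so that absence of a peak is no absence of the mark.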
